A study of Homo sapiens with 9 samples.

Results

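The genes described here are 41 genes of the unfolded protein response and of protein folding in the endoplasmic reticulum (ER). They were taken by symbol for their known roles, with earlier results of these data already known, from a table of 60591 gene symbols. All 41 were found in it. The expression filter kept 15944 symbols, and all 41 genes were among them. The messenger RNA came from uCaco-2 cells. These are undifferentiated Caco-2 cells, from a line of human colon adenocarcinoma that forms an enterocyte-like layer when left to differentiate. The control, CoCl2 and OD groups had 3 libraries each. All cells received 0.5% DMSO for 24 h, alone in the control group, with 300 μM CoCl2 (cobalt (II) chloride) in the second and with 5 μM of the oxyquinoline derivative 4896-3212 (OD) in the third. The DMSO is given as the labels state it, although a 10 mM stock diluted to 5 μM OD carries only 0.05%, so how well the vehicle was matched is uncertain. Both compounds are used as chemical activators of hypoxia-inducible factor (HIF) signalling, and their doses differ. All libraries came from a single line, so the values describe that line.

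Proteins that enter the ER are folded by chaperones and by enzymes that form and rearrange disulfide bonds. Proteins that fail to fold are drawn back to the cytosol and degraded, a route called ER-associated degradation (ERAD). When unfolded proteins build up, the sensors IRE1 (the product of ERN1), ATF6 and PERK switch on the unfolded protein response. IRE1 splices the XBP1 message, ATF6 is cut to release a transcription factor, and PERK slows translation by phosphorylating eIF2α, which favours translation of ATF4 and then transcription of DDIT3 (CHOP). In intestinal epithelium the response is known for its part in secretory cells and in inflammation. Splicing of XBP1, cleavage of ATF6 and phosphorylation of eIF2α do not change a count per gene, so none of these steps was measured here.

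Promoter sequences are shown first because some of these genes hold known elements of the response in their promoters. RefSeq windows of 300 bases on GRCh38.p14, from 250 bases before to 50 after the start site, were on hand for 37 of the 41 genes and for 27305 promoters in all. The ER stress element (ERSE) was searched as CCAAT, any 9 bases, then CCACG, and ERSE-II as ATTGG, any 1 base, then CCACG, each on both strands. ERSE was found in 22 of all promoters (0.0806%) and in 7 of the 37 (18.9%), and 6 of these 7 were chaperone or folding enzyme genes. ERSE-II was found in 15 of all promoters (0.0549%) and in 3 of the 37 (8.11%). Both the elements and the genes were picked as known parts of this response, so these shares are a description and not a test. The elements are printed in the direction CCAAT or ATTGG to CCACG, with these fixed letters in capitals and the spacer in lower case.

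HSPA5 ERSE: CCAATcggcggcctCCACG
HSP90B1 ERSE, first: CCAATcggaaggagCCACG
HSP90B1 ERSE, second: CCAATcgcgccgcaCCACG
CALR ERSE: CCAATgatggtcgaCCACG
CANX ERSE: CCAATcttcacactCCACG
CRELD2 ERSE: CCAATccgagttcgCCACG
ERO1B ERSE: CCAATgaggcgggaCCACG
XBP1 ERSE: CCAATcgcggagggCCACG
HERPUD1 ERSE-II: ATTGGgCCACG
HYOU1 ERSE-II, at 2 sites: ATTGGaCCACG
SDF2L1 ERSE-II: ATTGGtCCACG

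The spacers differed between genes while the fixed letters were the ones searched. The 10 genes with an element did not move alike in the cells. Against control, 8 of the 10 were higher and 2 lower with CoCl2 at an adjusted p under 0.05, against 40.4% and 42.8% of all tested genes. With OD, 5 were higher, 2 lower and 3 not past the test, against 32.3% and 33.3%. Their fold changes ran from -0.68 (SDF2L1) to 2.17 (HSPA5) on the log2 scale with CoCl2. When counts were scaled by library size alone, the CoCl2 split became 6 higher and 3 lower, since HYOU1 turned to lower and CALR did not pass. The median log2 fold change of all tested genes moved from -0.05 to -0.55 with that scaling.

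**Figure D1:**
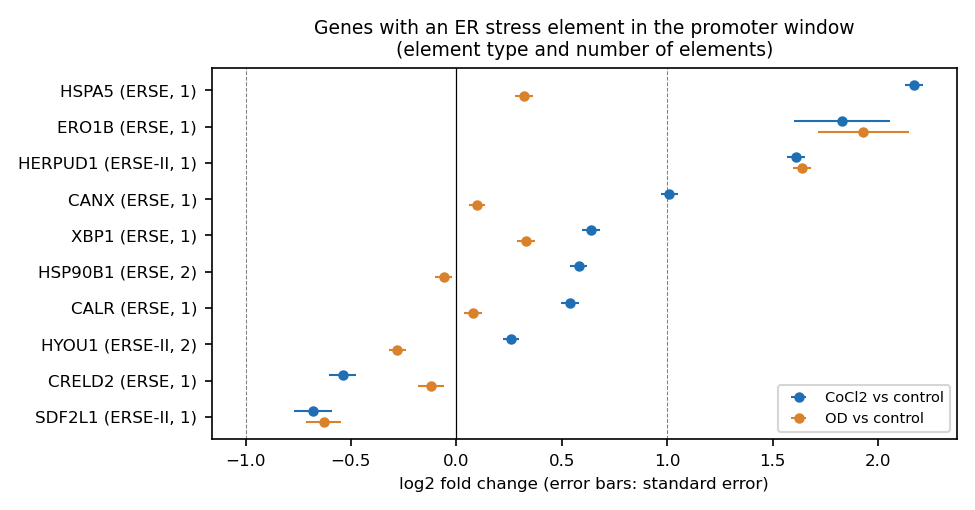
Log2 fold changes against control (x axis) of the 10 genes with an ER stress element in the promoter window (y axis, with the type and number of elements), for CoCl2 in blue and OD in orange, with the standard error of the fit as bars and dashed lines at a log2 fold change of 1 in size. With CoCl2, HSPA5 lies at 2.17 and SDF2L1 at -0.68, and with OD only ERO1B and HERPUD1 lie beyond 1.

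The 250 bases before the RefSeq start site are printed for 6 genes whose levels are compared most closely in the text. HSPA5, VCP and PPP1R15A were far higher with CoCl2 than with OD, CHAC1 and ERO1A were higher with OD, and HERPUD1 was called higher with both. The gene bounds given later are from GENCODE. By those bounds the CHAC1 and ERO1A stretches lie wholly inside the gene, and most of the PPP1R15A stretch does. The HSPA5 and VCP stretches overlap the gene at their ends, and only that of HERPUD1 lies wholly outside. Which start site these cells use was not tested, so the marked letters may lie downstream of it. Sequences run 5′ to 3′ on the strand of the gene, and capitals mark ERSE, ERSE-II, the core of the unfolded protein response element (TGACGTGG), the core of the C/EBP-ATF response element that ATF4 binds (TGATGNAA), the cAMP response element (TGACGTCA) and the core of the hypoxia response element (ACGTG), on either strand.

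HSPA5, chr9:125241344-125241593, minus strand: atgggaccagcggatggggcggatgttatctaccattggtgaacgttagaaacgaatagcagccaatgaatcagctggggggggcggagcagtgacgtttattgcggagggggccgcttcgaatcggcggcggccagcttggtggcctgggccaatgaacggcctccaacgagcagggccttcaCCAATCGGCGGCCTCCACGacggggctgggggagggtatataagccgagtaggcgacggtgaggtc
VCP, chr9:35072626-35072875, minus strand: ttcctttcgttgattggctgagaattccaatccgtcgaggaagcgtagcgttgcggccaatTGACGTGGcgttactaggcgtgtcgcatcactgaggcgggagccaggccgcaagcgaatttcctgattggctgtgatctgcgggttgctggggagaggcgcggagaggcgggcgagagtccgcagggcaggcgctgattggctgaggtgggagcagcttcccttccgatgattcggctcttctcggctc
PPP1R15A, chr19:48872171-48872420, plus strand: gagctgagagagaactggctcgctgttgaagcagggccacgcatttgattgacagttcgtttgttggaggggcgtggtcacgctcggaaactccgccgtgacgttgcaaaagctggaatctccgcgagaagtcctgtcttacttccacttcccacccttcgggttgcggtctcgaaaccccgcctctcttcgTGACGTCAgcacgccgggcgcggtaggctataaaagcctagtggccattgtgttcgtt
CHAC1, chr15:40953221-40953470, plus strand: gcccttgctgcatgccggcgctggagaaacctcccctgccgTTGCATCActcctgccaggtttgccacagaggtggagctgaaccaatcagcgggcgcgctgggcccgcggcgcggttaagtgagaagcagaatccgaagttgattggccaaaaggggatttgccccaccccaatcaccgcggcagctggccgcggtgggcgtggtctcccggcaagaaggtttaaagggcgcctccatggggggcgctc
ERO1A, chr14:52695559-52695808, minus strand: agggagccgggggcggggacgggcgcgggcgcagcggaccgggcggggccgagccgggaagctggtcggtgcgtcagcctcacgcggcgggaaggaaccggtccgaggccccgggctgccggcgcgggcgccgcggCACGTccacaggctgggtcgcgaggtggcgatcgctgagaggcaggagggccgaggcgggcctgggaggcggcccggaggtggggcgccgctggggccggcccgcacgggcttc
HERPUD1, chr16:56931892-56932141, plus strand: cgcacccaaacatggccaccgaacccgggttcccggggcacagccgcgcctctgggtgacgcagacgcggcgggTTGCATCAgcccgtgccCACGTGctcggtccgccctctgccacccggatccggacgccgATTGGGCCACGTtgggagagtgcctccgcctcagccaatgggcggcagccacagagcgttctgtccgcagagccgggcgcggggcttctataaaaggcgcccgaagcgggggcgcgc

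HERPUD1 held ERSE-II, the C/EBP-ATF core and ACGTG, the last of which overlaps the final letters of ERSE-II on the other strand. The C/EBP-ATF core was in 3.67% of all promoters and in 3 of the 37, HERPUD1, CHAC1 and PPP1R15B. TGACGTGG, which contains ACGTG, was in 0.795% of all promoters and in 2 of the 37, HYOU1 and VCP. TGACGTCA was in 1.98% of all and in 1 of the 37, PPP1R15A. ACGTG alone was in 21.6% of all and in 13 of the 37 (35.1%), the other hypoxia core GCGTG in 36.3% and 27 (73%), and CCAAT, which both ER stress elements contain, in 35.7% and 29 (78.4%). SELENOK, NPLOC4 and ERN1, also several times higher with CoCl2 than in control, held none of the elements marked by capitals in their windows. A match says that the letters are present in the window and does not show binding.

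Library totals ran from 15998136 to 24209427 counts. The CoCl2 libraries had the lowest TMM scaling factors, 0.7698 to 0.7946 against 1.108 to 1.116 in control and 1.138 to 1.15 in OD. With library size alone in place of these factors, the median log2 fold change of all tested genes moved from -0.05 to -0.55 for CoCl2 against control and from -0.05 to -0.60 for CoCl2 against OD. The median of the 41 genes moved with it from 0.73 to 0.23 and from 0.32 to -0.23, so small differences of the CoCl2 libraries depend on the scaling. Of 10 epithelial markers, 9 reached 1 CPM in every library while CDX1 stayed at 3 counts or fewer. Summed fibroblast markers stood at 18.4 to 33.4 CPM and endothelial markers at 2.36 to 3.50 CPM. The 4 leukocyte markers used summed to 49.8 to 53.4 CPM with CoCl2 and 33.1 to 37.9 CPM in the other libraries, mostly LYZ, with PTPRC and CD68 at 3 counts or fewer. Their part in the results was not tested.

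The first question was which of the 41 genes changed with each compound. A gene was called when the Benjamini-Hochberg adjusted p of edgeR's quasi-likelihood test was under 0.05 and the log2 fold change above 1 in size, that is, a change by more than a factor of 2. With CoCl2, 15 of the 41 genes were called higher, against 19.9% of all tested genes, and 0 were called lower, against 23.4%. With adjusted p alone, 35 were higher and 4 lower, against backgrounds of 40.4% and 42.8%. MANF and DERL3 did not pass. The median log2 fold change of the 41 was 0.73, beside -0.05 for all tested genes. DESeq2 also called 15 higher and 0 lower, and the unadjusted p alone gave 35 higher and 4 lower. Scaled by library size alone, the split of calls was 9 higher and 3 lower (SDF2L1, CRELD2 and PDIA4), and that by adjusted p alone 26 higher and 10 lower. Under that scaling the median of the 41 was 0.23, beside -0.55 for all tested genes, whose shares called were not counted. In bulk RNA, a lower value cannot be told apart from fewer cells of a kind that expresses the gene.

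With OD, 5 of the 41 genes were called higher, ERO1A, ERO1B, HERPUD1, CHAC1 and PPP1R15A, against 9.09% of all tested genes. The count called lower was 0 by edgeR and by DESeq2, against a background of 4.16%, with 7 lower at an unadjusted p under 0.05. With adjusted p alone, 28 were higher and 5 lower, against 32.3% and 33.3%, and 8 did not pass. The share called higher by both criteria, 5 of 41, was close to the background, and the median log2 fold change was 0.30, beside -0.01 for all tested genes. DESeq2 and scaling by library size alone also called CEBPB, which made 6.

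Compared directly, 7 of the 41 genes were called higher with CoCl2 than with OD (17.5% of all tested genes), namely SELENOK, VCP, UFD1, NPLOC4, HSPA5, ERN1 and PPP1R15A. Only CHAC1 was called lower with CoCl2 than with OD (23.8% of all tested genes). With adjusted p alone, 26 were higher and 6 lower, against 40.2% and 43.2%, and 9 did not pass. Scaling by library size alone reversed this balance, to 13 higher and 25 lower by adjusted p alone. Its split of calls was 6 higher and 3 lower, since ERN1 dropped out and PDIA4 and ERO1A entered. Under that scaling the median of all tested genes was -0.60, below the -0.23 of the 41 genes. Shares of all genes called were not counted under it. The comparisons of CoCl2 and of OD with control share the control libraries.

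**Figure D2:**
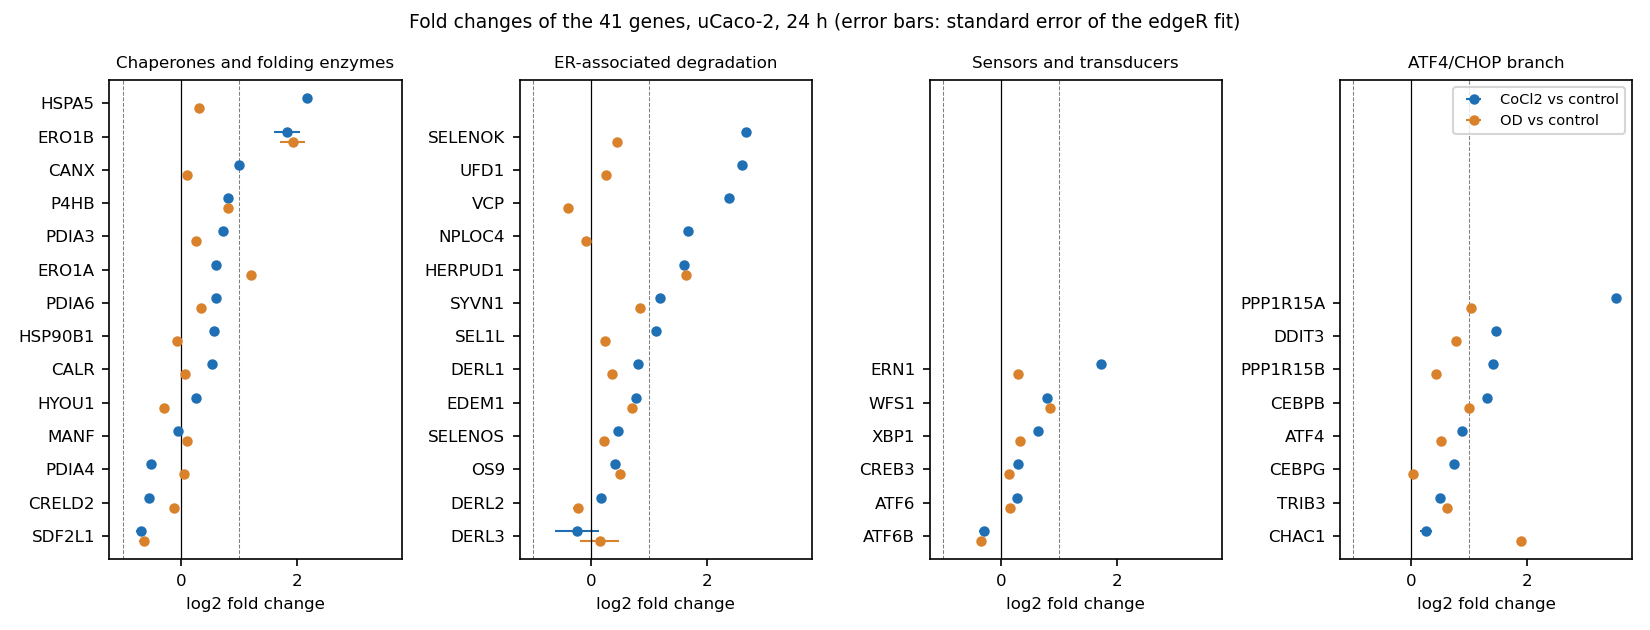
Log2 fold changes (x axis) of all 41 genes (y axis) against control, by role, for CoCl2 in blue and OD in orange, with the standard error of the edgeR fit as bars and dashed lines at a log2 fold change of 1 in size. The widest gaps between the compounds are at VCP, PPP1R15A, UFD1, SELENOK, HSPA5 and NPLOC4, where CoCl2 lies right of OD. The next widest is at CHAC1, where OD lies at 1.90 and CoCl2 at 0.25.

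Among the 14 chaperones and folding enzymes, HSPA5 had the largest change with CoCl2. HSPA5 (ENSG00000044574.9, chr9:125234853-125241382) encodes BiP, the Hsp70 of the ER, which binds unfolded chains and holds the sensors inactive. Its level was 859, 826 and 842 CPM in the control libraries, 4090, 3797 and 3481 CPM with CoCl2, and 1063, 1037 and 1062 CPM with OD. The CoCl2 libraries stood far above the others, and the OD libraries above control by a small margin without overlap. The rise was 4.5-fold with CoCl2 (log2 2.17 ± 0.044 SE, adjusted p = 7.84e-49) and 1.25-fold with OD (log2 0.32 ± 0.042, adjusted p = 7.38e-10), and the direct difference was 1.85 on the log2 scale (adjusted p = 3.3e-45).

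The other abundant chaperones moved less. HSP90B1, which encodes GRP94, the Hsp90 of the ER, measured 1661, 1681 and 1651 CPM in control, 2575, 2483 and 2424 CPM with CoCl2 and 1600, 1509 and 1695 CPM with OD. The CoCl2 libraries were higher by a log2 fold change of 0.58 (adjusted p = 8.44e-21). With library size alone, this value was only 0.08 (adjusted p = 0.042). The OD libraries overlapped control (log2 -0.06, 95% interval -0.13 to 0.02). CANX and CALR encode calnexin and calreticulin, the membrane-bound and soluble lectins that hold newly made glycoproteins. CANX was at 1184, 1192 and 1174 CPM in control, 2409, 2329 and 2401 CPM with CoCl2 and 1283, 1223 and 1298 CPM with OD. It was 2.01-fold higher with CoCl2, just past the fold threshold, and 1.07-fold higher with OD (adjusted p = 0.02). CANX lost its CoCl2 call without control replicate 3 (log2 0.995, adjusted p = 1.04e-29), and the fold also fell under the threshold with upper-quartile factors, with library size alone, with other count filters and when 6 libraries were fitted. CALR was 1.45-fold higher with CoCl2 (mean 1319 ± 78.5 CPM, SD, n = 3, against 909 ± 45.7 CPM) and did not pass with OD (log2 0.08, 95% interval -0.00 to 0.16). Under scaling by library size alone, the CALR rise with CoCl2 no longer passed (log2 0.03, adjusted p = 0.44) and the OD value did (log2 0.12, adjusted p = 0.00418).

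HYOU1, an Hsp110-type exchange factor for BiP, was at 448, 433 and 439 CPM in control, 540, 500 and 535 CPM with CoCl2 and 365, 362 and 357 CPM with OD. The 3 groups did not overlap, with CoCl2 highest and OD lowest. The log2 fold changes were 0.26 with CoCl2 (adjusted p = 3.09e-08) and -0.28 with OD (adjusted p = 4.2e-09), and the CoCl2 value turned to -0.25 with library size alone.

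SDF2L1, CRELD2 and PDIA4 went down with CoCl2 while HSPA5 went up. SDF2L1, a partner of ER DnaJ proteins and BiP, was at 23.3, 22.8 and 24.1 CPM in control, 13.6 to 16.2 CPM with CoCl2 and 12.1 to 16.8 CPM with OD. It fell with both compounds (log2 -0.68 and -0.63, adjusted p = 3.83e-10 and 1.48e-09), and their direct difference did not pass (95% interval -0.23 to 0.13), but was -0.60 (adjusted p = 1.88e-07) with library size alone. CRELD2, an ER-resident protein with disulfide isomerase activity, was at 40.6, 40.5 and 42.2 CPM in control, 30.4, 25.5 and 28.3 CPM with CoCl2 and 39.6, 38.2 and 35.1 CPM with OD. It fell with CoCl2 (log2 -0.54, adjusted p = 3.05e-11), and the OD value, just below the control libraries, did not pass (log2 -0.12, adjusted p = 0.0685). PDIA4, a disulfide isomerase known as ERp72, was at 385, 356 and 367 CPM in control, 261, 247 and 269 CPM with CoCl2 and 388, 373 and 385 CPM with OD. Its fall with CoCl2 was -0.51 on the log2 scale (adjusted p = 8.76e-18), and its OD libraries overlapped control (log2 0.05, 95% interval -0.03 to 0.13). None of the falls passed the fold threshold under TMM scaling. Under scaling by library size alone, all 3 falls with CoCl2 did (log2 -1.19, -1.05 and -1.02). MANF, a small secreted ER protein that protects stressed cells, stood at 70.8 to 74.0 CPM in control, 68.6 to 72.3 CPM with CoCl2 and 77.3 to 78.6 CPM with OD, and passed neither test against control, though with library size alone it passed both (log2 -0.55 with CoCl2 and 0.14 with OD, adjusted p = 5.47e-14 and 0.00838).

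Among the disulfide-forming enzymes, ERO1A was called higher with OD and P4HB rose with both compounds. P4HB encodes PDI, the main disulfide isomerase and a subunit of collagen prolyl hydroxylase. It was at 804, 765 and 770 CPM in control, 1408, 1312 and 1379 CPM with CoCl2 and 1400, 1349 and 1377 CPM with OD. Both compounds raised it 1.75-fold and 1.76-fold, and the 95% interval of their direct log2 difference was -0.09 to 0.07. Scaling by library size alone made that difference -0.56 (adjusted p = 8.52e-20), with P4HB lower with CoCl2. PDIA3, which works with the lectins, was higher by 0.73 with CoCl2 and 0.26 with OD on the log2 scale. PDIA6 was higher by 0.60 and 0.35. With library size alone, the CoCl2 values were 0.22 for PDIA3 and 0.09 for PDIA6. Of the exon bases of PDIA6, 25.2% overlap ATP6V1C2 on the opposite strand, and reads of the pair are uncertain because the strand setting of the counting was not given in the sources used here.

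ERO1A and ERO1B encode the oxidases that recharge PDI, ERO1A in most tissues and ERO1B mainly in secretory ones. ERO1A (chr14:52639915-52695900) was at 118, 136 and 129 CPM in control, 200, 204 and 184 CPM with CoCl2 and 297, 291 and 297 CPM with OD. The groups did not overlap and OD was the highest. The log2 fold changes were 0.61 ± 0.046 for CoCl2 and 1.21 ± 0.045 for OD. The direct difference was -0.59 (adjusted p = 2.23e-19). With library size alone, the CoCl2 value against control was 0.11 (adjusted p = 0.0276). ERO1B was scarce, at 1.08, 1.08 and 0.561 CPM in control, 2.80, 3.64 and 3.41 CPM with CoCl2 and 3.68, 3.06 and 3.83 CPM with OD. It was called higher with CoCl2 (log2 1.83 ± 0.228) and with OD (log2 1.93 ± 0.215), and the standard errors were the widest among the genes called.

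Of the 13 ERAD genes, 7 were called higher with CoCl2 (19.9% of all tested genes), with a median log2 fold change of 1.12. With OD, only HERPUD1 was called higher (9.09% of all tested genes) and the median was 0.26. With library size alone 5 of the 7 stayed past the thresholds, and SYVN1 (log2 0.695) and SEL1L (log2 0.612) did not.

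The extraction machinery set the compounds apart. VCP encodes p97, the ATPase that pulls substrates out of the ER membrane, and UFD1 and NPLOC4 encode the cofactor pair that brings ubiquitinated substrates to it. VCP (ENSG00000165280.18, chr9:35053928-35072668) was at 600, 565 and 577 CPM in control, 3161, 2922 and 3010 CPM with CoCl2 and 448, 432 and 442 CPM with OD. UFD1 (chr22:19449911-19479202) was at 90.3, 83.5 and 87.0 CPM in control, 555, 521 and 519 CPM with CoCl2 and 107, 102 and 103 CPM with OD. NPLOC4 (chr17:81556887-81648465) was at 152, 148 and 149 CPM in control, 497, 473 and 473 CPM with CoCl2 and 145, 141 and 136 CPM with OD. All 3 genes were several times higher in every CoCl2 library than in any other library, by 5.22-fold, 6.12-fold and 3.21-fold over control (adjusted p = 1.43e-52, 4.71e-53 and 3.66e-44). With OD the 3 genes did not move together. VCP fell to 0.759 of control (adjusted p = 1.62e-13), UFD1 rose 1.2-fold (adjusted p = 1.21e-06), and NPLOC4 did not pass (log2 -0.09, adjusted p = 0.0562). The direct log2 differences were 2.78, 2.35 and 1.77.

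SELENOK and SELENOS are membrane selenoproteins that bind the derlins and p97. SELENOK (ENSG00000113811.12, chr3:53884417-53891885) was at 42.4, 42.1 and 42.4 CPM in control, 272, 269 and 267 CPM with CoCl2 and 57.2, 58.6 and 58.1 CPM with OD. The spread within each group was small beside the 6.37-fold rise with CoCl2 (log2 2.67 ± 0.047, adjusted p = 5.66e-52) and the 1.37-fold rise with OD (adjusted p = 5.43e-12). SELENOS rose far less, from 57.4 ± 1.16 CPM (SD, n = 3) in control to 78.7 ± 1.47 CPM with CoCl2 and 67.5 ± 0.393 CPM with OD. Its rise with CoCl2 turned to -0.0484 on the log2 scale with library size alone.

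HERPUD1 (ENSG00000051108.15, chr16:56932142-56944864), a membrane protein with a ubiquitin-like domain that organises the ERAD complex, was called higher with both compounds. It was at 97.4, 97.5 and 92.9 CPM in control, 303, 290 and 284 CPM with CoCl2 and 299, 299 and 298 CPM with OD. The treated groups overlapped each other and lay clear of control. The rises were 3.05-fold and 3.11-fold, and the direct log2 difference of -0.03 had a 95% interval of -0.11 to 0.05. With library size alone both calls held, but the direct difference became -0.58 (adjusted p = 8.97e-19), lower with CoCl2.

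SYVN1 encodes HRD1, the ubiquitin ligase of ERAD, and SEL1L its scaffold. SYVN1 was at 43.6 to 46.3 CPM in control, 104, 98.5 and 105 CPM with CoCl2 and 83.2, 79.7 and 77.6 CPM with OD. SEL1L was at 101, 101 and 103 CPM in control, 231, 223 and 209 CPM with CoCl2 and 122, 121 and 121 CPM with OD. Both genes passed both thresholds with CoCl2 (2.3-fold and 2.17-fold). With OD they rose 1.8-fold and 1.19-fold, by adjusted p alone.

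EDEM1 and OS9, the lectins that pick misfolded glycoproteins for ERAD, rose with both compounds by adjusted p alone. EDEM1 rose 1.71-fold with CoCl2 and 1.64-fold with OD, and OS9 1.34-fold and 1.42-fold. The CoCl2 value of OS9 turned to -0.0868 on the log2 scale with library size alone. Of the exon bases of OS9, 15.9% overlap AGAP2-AS1 on the same strand and 16.6% overlap genes on the opposite strand. Among the derlins, which form the channel, DERL1 rose from 45.6 ± 2.12 CPM (SD, n = 3) to 80.2 ± 2.29 CPM with CoCl2 and 58.7 ± 2.66 CPM with OD. DERL2 had overlapping libraries, and its log2 fold changes of 0.18 with CoCl2 and -0.23 with OD passed adjusted p alone, the former turning to -0.321 with library size alone. DERL3 was at 0.393 to 0.954 CPM over all 9 libraries, passed no test under TMM scaling, and shares 77% of its exon bases with SMARCB1 on the opposite strand.

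**Figure D3:**
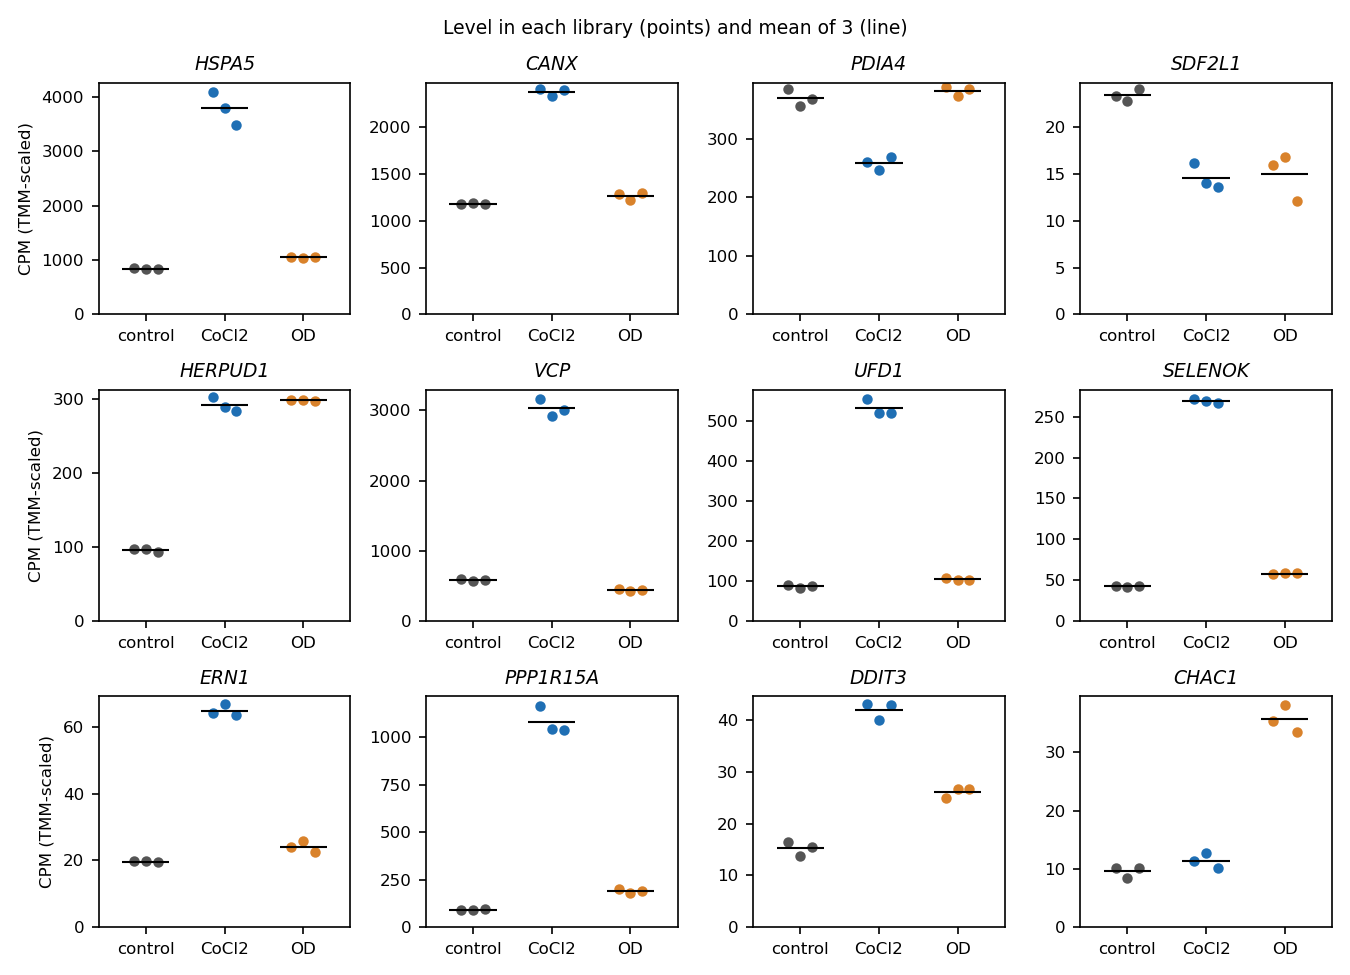
Level of 12 of the genes in each library (points, TMM-scaled CPM on linear axes from 0) with the mean of 3 libraries (lines) for control in grey, CoCl2 in blue and OD in orange. VCP, UFD1, SELENOK, ERN1 and PPP1R15A stand far higher with CoCl2 than with OD, HERPUD1 at 284 to 303 CPM with both compounds, and CHAC1 at 33.5 to 38.2 CPM with OD against 10.2 to 12.8 CPM with CoCl2.

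Of the 6 sensors and transducers, ERN1 was called higher with CoCl2 by edgeR and DESeq2 (1 of 6, against 19.9% of all tested genes). With OD, 0 were called by either tool, against 9.09% of all tested genes higher and 4.16% lower. By adjusted p alone, 5 were higher and 1 lower with OD, against 32.3% and 33.3%. The unadjusted p under 0.05 gave the same 5 and 1. ERN1 (ENSG00000178607.17, chr17:64039080-64130819), which encodes IRE1α, was at 19.7, 19.7 and 19.6 CPM in control, 64.0, 66.8 and 63.5 CPM with CoCl2 and 24.1, 25.9 and 22.4 CPM with OD. The CoCl2 libraries lay clear of the rest, with log2 fold changes of 1.72 ± 0.063 for CoCl2 (adjusted p = 1.57e-34) and 0.30 ± 0.069 for OD (adjusted p = 0.000153). The direct difference was 1.42, and it fell under the fold threshold with library size alone (log2 0.873). XBP1, the substrate of IRE1, was at 159, 158 and 155 CPM in control, 252, 240 and 240 CPM with CoCl2 and 202, 190 and 199 CPM with OD. The order was CoCl2, OD, control without overlap, with log2 fold changes of 0.64 and 0.33. With library size alone, the CoCl2 value was 0.13 (adjusted p = 0.0026). The direct difference of 0.31 turned to -0.24 with that scaling.

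ATF6 and ATF6B, membrane-bound factors cut in the Golgi, moved in opposite directions with both compounds. ATF6 stood at 46.9 to 48.3 CPM in control, 54.7 to 58.8 CPM with CoCl2 and 51.1 to 54.9 CPM with OD, and ATF6B at 28.5 to 30.3 CPM, 20.7 to 25.8 CPM and 21.3 to 24.7 CPM. The log2 fold changes were 0.27 and 0.15 for ATF6 and -0.30 and -0.35 for ATF6B, all by adjusted p alone, and the rise of ATF6 with CoCl2 turned to -0.233 with library size alone. CREB3, a related membrane-bound factor, gave 0.30 with CoCl2, which turned to -0.208 with library size alone, and 0.13 with OD. WFS1, an ER membrane protein that restrains ATF6, was at 26.3, 26.9 and 30.1 CPM in control, 47.0, 47.4 and 49.2 CPM with CoCl2 and 49.5, 51.9 and 47.4 CPM with OD. It rose 1.73-fold and 1.79-fold, and the direct log2 difference had a 95% interval of -0.17 to 0.06, but was -0.60 (adjusted p = 8.51e-13) with library size alone.

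In the ATF4/CHOP branch, 4 of 8 genes were called higher with CoCl2, against 19.9% of all tested genes, and 2 with OD, against 9.09%. They were PPP1R15A, PPP1R15B, DDIT3 and CEBPB with CoCl2, and PPP1R15A and CHAC1 with OD. With library size alone, PPP1R15B, DDIT3 and CEBPB fell under the fold threshold with CoCl2, which left 1 call. That scaling gave 3 calls with OD, namely PPP1R15A, CHAC1 and CEBPB. PPP1R15A (ENSG00000087074.9, chr19:48872212-48876059) encodes GADD34, the stress-induced subunit that directs a phosphatase to eIF2α and so restores translation. It was at 92.2, 89.9 and 98.4 CPM in control, 1161, 1039 and 1037 CPM with CoCl2 and 200, 180 and 192 CPM with OD. This was the largest change among the 41 genes with CoCl2 under every scaling tried, 11.5-fold (log2 3.53 ± 0.048, adjusted p = 4.24e-55), against 2.04-fold with OD (log2 1.03 ± 0.048, adjusted p = 2.17e-27). The OD call sat at the threshold, and was lost without control replicate 2 (log2 0.996) and without OD replicate 1 (log2 0.993). PPP1R15B, the constitutive partner of the same phosphatase, was at 56.0, 61.7 and 61.3 CPM in control, 161, 164 and 151 CPM with CoCl2 and 82.2, 77.2 and 82.3 CPM with OD. Its rise was 2.66-fold with CoCl2 and 1.35-fold with OD.

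ATF4 and DDIT3 are the transcription factors that give the branch its name. ATF4 was at 403, 380 and 376 CPM in control, 737, 670 and 720 CPM with CoCl2 and 571, 543 and 546 CPM with OD. DDIT3 was at 16.5, 13.8 and 15.4 CPM in control, 43.1, 39.9 and 42.8 CPM with CoCl2 and 25.0, 26.7 and 26.6 CPM with OD. Both were highest with CoCl2 and intermediate with OD, with log2 fold changes of 0.88 and 0.52 for ATF4 and 1.47 and 0.78 for DDIT3. With library size alone, DDIT3 with CoCl2 stood at 0.962 and ATF4 was lower with CoCl2 than with OD by -0.188. Of the exon bases of DDIT3, 31.6% overlap genes on the opposite strand, among them MARS1.

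CHAC1 (ENSG00000128965.13, chr15:40952962-40956512), a target of ATF4 whose product breaks down glutathione, went the other way. It was at 10.2, 8.48 and 10.2 CPM in control, 11.4, 12.8 and 10.2 CPM with CoCl2 and 35.4, 38.2 and 33.5 CPM with OD. OD alone set it apart, with a 3.74-fold rise (log2 1.90 ± 0.082, adjusted p = 3.86e-30), while the CoCl2 libraries lay just above control (log2 0.25 ± 0.102, adjusted p = 0.023) and turned to -0.259 with library size alone. The direct log2 difference of -1.65 (adjusted p = 8.91e-28) was the only call of a gene lower with CoCl2 than with OD. TRIB3, a pseudokinase induced by ATF4 and CHOP, was at 93.9, 86.7 and 93.3 CPM in control, 124, 127 and 137 CPM with CoCl2 and 139, 139 and 138 CPM with OD. The direct difference was small (log2 -0.10, adjusted p = 0.0309), and its rise with CoCl2 turned to -0.00364 with library size alone.

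CEBPB and CEBPG encode leucine zipper factors that pair with ATF4 or CHOP. CEBPB was at 23.7, 24.9 and 25.2 CPM in control, 69.4, 57.1 and 56.5 CPM with CoCl2 and 48.1, 51.5 and 47.3 CPM with OD. It rose 2.48-fold with CoCl2 and 1.99-fold with OD, the latter just under the fold threshold. With library size alone, the log2 fold changes of CEBPB were 0.80 with CoCl2 and 1.03 with OD. CEBPG was at 82.9, 88.9 and 84.7 CPM in control, 143, 144 and 140 CPM with CoCl2 and 86.1, 87.2 and 88.0 CPM with OD. It rose 1.66-fold with CoCl2 and overlapped control with OD (log2 0.03, 95% interval -0.07 to 0.12). With library size alone, its log2 fold change with CoCl2 was 0.23.

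Ratios of related genes were taken within each library, where scaling factors cancel out. For each of 8 pairs, an exact permutation test over 3 libraries against 3 cannot give a two-sided p below 0.1. The log2 ratio of PPP1R15A to PPP1R15B was 0.65 ± 0.094 in control, 2.76 ± 0.095 with CoCl2 and 1.24 ± 0.035 with OD (SD, n = 3 each). The ratio of SELENOS to SELENOK turned over, from 0.44 ± 0.027 in control to -1.78 ± 0.022 with CoCl2, while OD gave 0.22 ± 0.016. DDIT3 to ATF4 went from -4.67 ± 0.102 to -4.08 ± 0.014 with CoCl2 and -4.41 ± 0.092 with OD. In these pairs no groups overlapped, and each exact p was 0.1.

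In other pairs the 2 compounds gave ratios that overlapped each other and differed from control. The log2 ratio of ATF6 to ATF6B was 0.70 in control, 1.29 with CoCl2 and 1.20 with OD (exact p = 0.1 against control and 0.4 between compounds). DERL1 to DERL2 was 1.12, 1.74 and 1.71 (exact p = 0.1 and 0.7). The pair CALR to CANX moved with CoCl2 from -0.38 to -0.85 and stayed at -0.40 with OD (exact p = 0.1 for CoCl2 and 0.9 for OD against control). CEBPB to CEBPG rose from -1.80 to -1.23 with CoCl2 and -0.83 with OD, and ERO1A to ERO1B fell from 7.20 to 5.91 and 6.39, with an exact p of 0.1 for every comparison of both pairs.

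**Figure D4:**
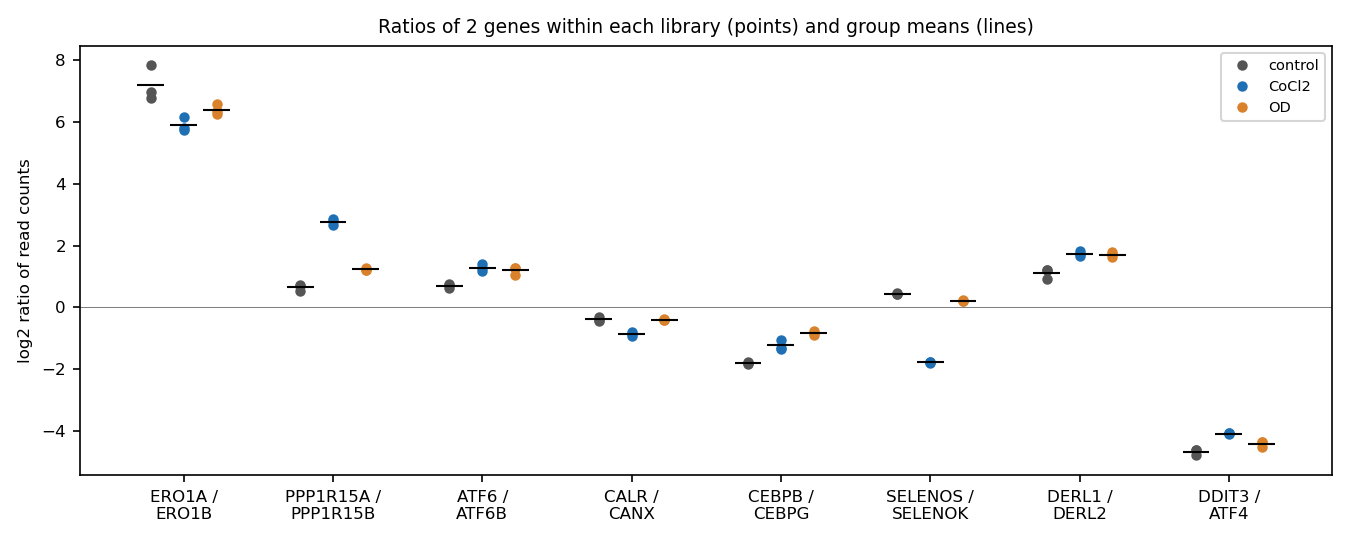
Log2 ratio of read counts of 2 related genes within each library (y axis, points) with group means (lines) for 8 pairs (x axis), control in grey, CoCl2 in blue and OD in orange. SELENOS to SELENOK drops from 0.44 to -1.78 with CoCl2, PPP1R15A to PPP1R15B climbs from 0.65 to 2.76, and ATF6 to ATF6B and DERL1 to DERL2 sit at like values with both compounds.

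The 41 genes together took 1.13% ± 0.014 of all counts in control, 1.77% ± 0.035 with CoCl2 and 1.39% ± 0.029 with OD (SD, n = 3 each). The folding genes made up most of this, with 0.852%, 1.12% and 1.02%. ERAD genes went from 0.16% to 0.424% with CoCl2 and 0.194% with OD, and the ATF4/CHOP genes from 0.0851% to 0.183% and 0.133%. With CoCl2, the shares of these 3 roles lean on single genes. HSPA5 rose from a mean of 842 to 3789 CPM, VCP from 581 to 3031 CPM and PPP1R15A from 93.5 to 1079 CPM, the largest rises in CPM in their roles. Shares without these genes were not computed. The sensors took 0.0382%, 0.0402% and 0.0475%. In every role the 3 treated libraries of either compound lay above the 3 control libraries. Taken against the counts outside the 50 most abundant genes, the 41 genes stood at 1.35%, 2.27% and 1.66%.

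Per kilobase of annotated exon, CALR had the highest level in control (325 CPM per kb), followed by ATF4 (148 CPM per kb) and HSPA5 (129 CPM per kb), and ERO1B the lowest (0.0589 CPM per kb). With CoCl2, HSPA5 came first at 580 CPM per kb, ahead of CALR at 471, PPP1R15A at 314 and VCP at 302 CPM per kb. With OD, CALR was again first at 343 CPM per kb, and ATF4 at 212 CPM per kb stood above HSPA5 at 161 CPM per kb. These levels divide by all exon bases of a gene in GENCODE 44, which is longer than most single transcripts.

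Other genes of the same pathways were taken as 5 lists by symbol, 164 genes in all, of which 162 were tested. With CoCl2, 26 of them were called higher and 14 lower (18 and 33 with library size alone). The shares of all tested genes under TMM scaling were 19.9% and 23.4%. With OD 19 were higher and 1 lower, against 9.09% and 4.16%. The direct comparison of CoCl2 with OD called 22 higher and 22 lower (7 and 42 with library size alone). Its shares under TMM scaling were 17.5% and 23.8%. These shares are also the background for the counts of each list below. The list of 44 other folding genes gave 2 calls higher and 8 lower with CoCl2, and 3 higher and 1 lower with OD. DNAJB9, a J-protein that returns BiP to IRE1, rose by 2.26 with CoCl2 and 1.47 with OD on the log2 scale. FKBP10, a prolyl isomerase of collagen, fell from 109 ± 1.62 CPM (SD, n = 3) to 30.3 ± 2.13 CPM with CoCl2 and was at 111 ± 0.458 CPM with OD. The ER calcium-binding protein gene RCN3 was scarce, at a mean of 1.43 CPM in control and 0.331 CPM with CoCl2 (log2 -2.08 ± 0.374 SE). QSOX1, a sulfhydryl oxidase, rose by 1.35 with OD and 0.68 with CoCl2.

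The 36 other ERAD genes gave 8 higher and 1 lower with CoCl2 and 1 higher and 0 lower with OD. UBXN8, which tethers p97 to the ER, rose from 12.3 ± 0.991 CPM to 57.5 ± 4.26 CPM with CoCl2 and fell to 7.88 ± 0.541 CPM with OD (SD, n = 3 each). UBQLN1, a shuttle to the proteasome, rose by 2.22 on the log2 scale with CoCl2 and had -0.16 with OD. Both genes had the directions seen for VCP. RNF103, an ER ubiquitin ligase, rose by 2.63 and 1.04.

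The list of other sensors held 15 tested genes, of which 2 were called higher and 1 lower with CoCl2. EIF2AK3, which encodes the sensor PERK, rose by 1.13 with CoCl2 and 0.53 with OD, and TMBIM6, an ER channel regulator of cell death, by 1.30 and 0.42. MBTPS2 encodes the site-2 protease that finishes the cleavage of ATF6. It fell from 31.7 ± 1.25 CPM to 6.45 ± 1.07 CPM with CoCl2 and to 18.9 ± 0.940 CPM with OD (SD, n = 3 each). CREB3L3, a membrane-bound factor of liver and gut, was called with OD (log2 1.47) and did not pass with CoCl2 (log2 -0.31, adjusted p = 0.136).

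Of 30 other ATF4 target and branch genes tested, CoCl2 gave 12 calls higher and 3 lower and OD gave 13 higher and 0 lower. DDIT4, an inhibitor of mTORC1 that ATF4 and HIF both induce, rose from 3.99 ± 0.512 CPM to 71.9 ± 4.53 CPM with CoCl2 and 65.8 ± 3.65 CPM with OD. KLHL24, CTH (cystathionine gamma-lyase) and SLC7A11 (the cystine transporter) rose by 3.78, 3.63 and 3.43 on the log2 scale with CoCl2 and by 2.19, 2.05 and 2.12 with OD.

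Among 37 genes of ER import and export, KDELR3 was called in opposite directions. KDELR3 encodes a receptor that retrieves escaped chaperones to the ER. It was at 28.7 to 31.0 CPM in control, 12.3 to 12.6 CPM with CoCl2 and 61.3 to 69.5 CPM with OD, with log2 fold changes of -1.25 (adjusted p = 6.48e-23) and 1.16 (adjusted p = 1.55e-26) and a direct difference of -2.40 (adjusted p = 4.5e-40). SEC24D, a cargo adaptor of COPII vesicles, and RPN1, a subunit of the oligosaccharyltransferase, were the 2 genes of this list called higher with CoCl2, at 1.19 and 1.04.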

How the data were processed

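Poly(A)-selected stranded libraries were read as single-end 75-nucleotide reads. The authors trimmed with cutadapt 2.10, checked quality with FastQC 0.11.9, mapped with STAR 2.7.5b to GRCh38.p13 (versions per the submitters' processing notes) and deposited whole-number counts per gene symbol. The counting tool, its strand setting and its handling of reads with several matches were not given in the sources used here. All 9 columns were mapped and 0 were left unused.

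From these counts, edgeR 4.0.16 (R 4.3.3) gave TMM-scaled CPM (each count divided by its library's scaled total) and a robust quasi-likelihood fit over 9 libraries with 1 mean per group, after its expression filter. Fold changes are logs to base 2. Errors are standard errors, worked out as the size of the log2 fold change over the square root of the test's F value. The 95% intervals rest on these errors and use a normal approximation. Benjamini-Hochberg adjustment ran over all 15944 tested symbols. DESeq2 1.42.0 was an alternative, beside other scalings, filters, subsets of libraries and a replicate block.

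The study's methods call the replicates biological, without saying whether they were cultured on separate days, so p-values measure the spread between these libraries. Replicate pairs differed beyond sampling noise (chi-square per degree of freedom 1.83 to 3.35). Of 13 pseudogene symbols of these genes, PDIA3P1 held at most 1.75% of its parent's counts and the others at most 0.321%.

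Coordinates and exon lengths came from GENCODE 44, promoters from RefSeq. All 41 genes are named. From each of the other lists, up to 3 called genes averaging 1 CPM or more were named per comparison with control, by size of fold change. The members and lists were chosen with earlier results of these data known. The values of 1 marker gene are not reported here.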

Additional observations from a re-analysis of the deposited data

How the results depend on the processing

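Over 123 fitted differences of the 41 genes, 1770 of 1842 alternative values kept their direction and their side of the thresholds. Scaling by library size alone moved most. It gave 9 genes higher and 3 lower for CoCl2 against control and 3 lower for CoCl2 against OD, and among the other pathway genes 33 lower for CoCl2, then 7 higher and 42 lower for CoCl2 against OD. For CoCl2 against control it turned HYOU1 (-0.25), DERL2 (-0.321), OS9 (-0.0868), SELENOS (-0.0484), ATF6 (-0.233), CREB3 (-0.208), TRIB3 (-0.00364) and CHAC1 (-0.259). For CoCl2 against OD it turned HYOU1 (-0.00728), CALR (-0.0913), PDIA3 (-0.0744), PDIA6 (-0.305), SYVN1 (-0.191), EDEM1 (-0.482), DERL1 (-0.0972), DERL2 (-0.132), SELENOS (-0.323), XBP1 (-0.24), ATF6 (-0.423), ATF6B (-0.497), CREB3 (-0.383), ATF4 (-0.188) and CEBPB (-0.231). The median of all genes moved with this scaling, and the cause was not tested. RLE factors turned MANF (CoCl2 against control, 0.00381), P4HB (0.0352) and HERPUD1 (0.0139), and upper-quartile factors turned EDEM1 (-0.068), ATF6 (-0.00805) and ATF6B (-0.0818). No count filter turned EDEM1 (-0.00241) and ATF6B (-0.015), and at least 10 counts in every library ATF6B (-0.00377); all of these but MANF are CoCl2 against OD. That filter left DERL3 out of the fit.

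The adjusted p alone gave 35 higher and 4 lower with CoCl2, 28 and 5 with OD, and 26 and 6 directly (26 and 10, 31 and 5, and 13 and 25 with library size alone), and for the other pathway genes 85 and 58, 70 and 43, and 82 and 62. Testing against a log2 fold change of 1 (glmTreat) left 9 of the other pathway genes lower with CoCl2 and 0 with OD, and at least 10 counts in every library also left 0. Leaving out each library in turn gave 0 to 1 of them lower with OD (0 without OD replicate 1, where the only such gene, CLGN, named here after its value was seen, was lost). Fold changes that changed sign when a library was left out ran from -0.541 to 0.0308 for DERL3 with CoCl2 and from -0.101 to 0.427 with OD. Directly they ran from -0.181 to 0.0304 for SDF2L1, -0.0313 to 0.0239 for P4HB, -0.207 to 0.00319 for ERO1B and -0.0288 to 0.127 for ATF6B. None of these had passed the test.

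Same-numbered libraries did not deviate together (correlations of -0.00492 to 0.0376) and not every library correlated best with its own number, so the numbers were not taken to pair samples. With the replicate block, 15, 5 and 7 of the 41 genes were called higher for CoCl2, OD and CoCl2 against OD, as without it, and no call of the 41 genes changed. Near 10 counts, as for DERL3 and ERO1B in control, standard errors of 0.215 to 0.385 limit what can be seen. Intervals cover the spread between libraries only.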
